A study of Mus musculus with 21 samples.

Results

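Interferon-stimulated effector genes encode the proteins that act on viruses and their RNA once a cell has responded to interferon. A list of 52 such genes was chosen by name, with earlier results of these data known. It spans RNA-binding proteins, oligoadenylate synthetases, Mx GTPases, the ISG15 system, ADP-ribosyltransferases, helicases and nuclear body proteins. The genes were followed through a lipopolysaccharide (LPS) time course in mouse bone marrow-derived macrophages. All 52 were found among the 25067 named genes of the deposited table, and all 52 were among the 12529 genes with enough counts to test, so none was lost to the filter on low counts. Marrow came from femurs and tibias of male C57Bl6/J mice of 6 to 12 weeks and was grown for 7 days in medium with L929-conditioned medium, a source of macrophage growth factor. Cells labelled Nur77-KO (3 libraries per time, numbered 2, 3 and 4) were compared with WT cells (4 libraries per time, numbered 1 to 4) after 0, 4 and 18 h of LPS at 100 ng/ml, which gave 21 libraries of messenger RNA. The product of Nr4a1, Nur77, is a nuclear receptor. The genotype tag of the knockout libraries reads cre, and the sources used here do not say whether the deletion is germline or conditional. Whether library numbers stand for separate mice is not stated, and p-values therefore cover only the spread among these libraries.

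LPS is sensed by Toll-like receptor 4, whose TRIF arm activates the transcription factor IRF3 and induces the interferon beta gene. Secreted interferon beta then acts on its receptor on the same or a neighbouring cell, and the kinases JAK1 and TYK2 pass the signal to transcription factors that bind interferon-stimulated response elements in effector gene promoters. Part of the set, such as the Ifit genes, can also be induced by IRF3 directly, and USP18 and SOCS1 restrain the receptor signal afterwards.

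Each library held 12301504 to 29650081 counts on named genes, taking 1 transcript per gene, out of 23478281.5 to 55852932 deposited counts. Shares of gene counts below are shares of the former. Levels below are CPM, counts divided by a library size to which TMM, a factor for unequal composition of libraries, was applied. The factors were 1.40 to 1.47 in libraries of both genotypes at 0 h and 0.699 to 0.762 at 4 h. At 18 h they were 0.853 to 0.888 in libraries labelled Nur77-KO and 0.988 to 1.03 in WT libraries. Scaling to library totals alone therefore shifted the all-gene median of log2 fold changes to -0.23 in the genotype comparison at 18 h, against -0.01 with TMM, and the effector genes are read against the median of all genes on either scale. Nr4a1 itself did not separate the labels in 1 direction. It stood at 12.4, 12.2 and 12.4 CPM in the libraries labelled Nur77-KO, against 13.4, 16.2, 15.2 and 14.0 CPM in WT libraries at 0 h. At 18 h it stood at 2.96, 2.10 and 3.48 CPM in the libraries labelled Nur77-KO, against 1.04, 1.33, 0.965 and 1.08 CPM in WT libraries, higher in the knockout label (log2 fold change 1.35 ± 0.45 SE, adjusted p = 0.0297 by the edgeR quasi-likelihood test with adjustment after Benjamini and Hochberg). At 4 h it stood at 0.531, 0.869 and 1.21 CPM in the libraries labelled Nur77-KO, against 7.25, 2.16, 1.74 and 1.30 CPM in WT libraries, lower in the knockout label (log2 fold change -1.77 ± 0.51 SE, adjusted p = 0.0498 by the same edgeR test), and WT number 1 lay far above the other WT libraries. The sources used here do not say which part of the gene was deleted, so counts outside that part check nothing, and Nur77-KO below means the libraries so labelled in every statement of direction. Macrophage markers were present in all 21 libraries, with 8 of 8 above 0 and a summed level of 13111.7 to 24787 CPM.

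The core of an interferon-stimulated response element, read as GAAA, any 2 bases and GAAA again, was searched on both strands of RefSeq promoter windows on GRCm38.p6, each running from 250 bases before to 50 bases after an annotated start. Of the 42 effector genes with a window, 15 held a match (35.7%), against 3.99% of 27025 genes. The other 10 genes had no window and are only named: Oas2, Ifi27, Mx2, Mx1, Parp10, Rtp4, Parp14, Parp9, Tor3a and Usp18. A match describes letters and is not evidence of binding. The 250 bases before the start of 4 genes are shown to let the results below be read against them. Capitals mark the matches, and TTTC, any 2 bases and TTTC again is the same core on the other strand. Ifit1 lies at chr19:34640639-34640888 (plus strand), Rsad2 at chr12:26456453-26456702 (minus strand), Isg15 at chr4:156200819-156201068 (minus strand) and Samhd1 at chr2:157135097-157135346 (minus strand).
Ifit1: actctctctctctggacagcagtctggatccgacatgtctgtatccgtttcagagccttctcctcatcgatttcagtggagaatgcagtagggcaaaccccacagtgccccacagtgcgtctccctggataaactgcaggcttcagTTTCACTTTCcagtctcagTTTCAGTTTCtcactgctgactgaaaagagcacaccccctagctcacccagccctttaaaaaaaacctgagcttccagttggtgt
Rsad2: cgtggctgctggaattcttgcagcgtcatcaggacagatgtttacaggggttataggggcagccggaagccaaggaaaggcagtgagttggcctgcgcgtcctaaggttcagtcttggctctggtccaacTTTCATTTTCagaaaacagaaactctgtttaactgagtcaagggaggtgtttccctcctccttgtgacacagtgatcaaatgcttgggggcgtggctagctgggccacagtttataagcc
Isg15: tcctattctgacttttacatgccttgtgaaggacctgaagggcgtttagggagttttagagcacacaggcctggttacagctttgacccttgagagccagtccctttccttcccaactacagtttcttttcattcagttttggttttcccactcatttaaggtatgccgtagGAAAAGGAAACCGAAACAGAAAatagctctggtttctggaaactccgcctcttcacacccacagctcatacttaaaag
Samhd1: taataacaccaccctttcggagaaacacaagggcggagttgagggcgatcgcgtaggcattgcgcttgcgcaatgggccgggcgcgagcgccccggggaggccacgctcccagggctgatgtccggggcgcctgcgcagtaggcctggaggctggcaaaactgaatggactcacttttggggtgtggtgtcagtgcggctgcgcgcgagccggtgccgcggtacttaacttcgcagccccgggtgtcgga
Ifit1 held a pair of matches, starting 104 and 85 bases before the start site, and Rsad2 held 1, starting 120 bases before it. Isg15 held 3 matches that overlap each other, starting 78, 72 and 66 bases before the start site. Samhd1 held none in its window. Among the 20 genes with a window that were later called higher in Nur77-KO at 18 h 6 held a match, and among the 22 that were not called 9 did.

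Before LPS the effector genes varied between libraries of the same label more than they differed between labels. Ifit1, which binds viral RNA that lacks the host cap methylation, stood at 77.8, 28.3 and 43.9 CPM in the libraries labelled Nur77-KO, against 63.2, 26.8, 41.2 and 36.6 CPM in WT libraries. Isg15, a ubiquitin-like protein that is attached to newly made proteins, stood at 25.9, 9.51 and 13.2 CPM in the libraries labelled Nur77-KO, against 17.4, 7.24, 10.7 and 12.8 CPM in WT libraries. Rsad2, which encodes viperin, the enzyme that makes a chain-terminating nucleotide, stood at 257, 105 and 162 CPM in the libraries labelled Nur77-KO, against 231, 102, 170.2 and 167 CPM in WT libraries. In each of these the first value given of a group, Nur77-KO number 2 or WT number 1, was the highest of its group, and the groups overlapped. The pattern was general: Nur77-KO number 2 was the highest Nur77-KO library for 51 of 52 genes and WT number 1 the highest WT library for 48 of 52. The mean log2 CPM of the 52 genes was 6.09, 5.14 and 5.41 in Nur77-KO libraries, against 5.97, 5.12, 5.33 and 5.39 in WT libraries. The median SD of log2 CPM among libraries of a group was 0.447 for effector genes in Nur77-KO and 0.371 in WT at 0 h, against 0.128 and 0.159 over all genes tested. Both libraries that stand apart enter every comparison with 0 h, and results were also computed without them.

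At 0 h no effector gene was called between the genotypes in edgeR (quasi-likelihood test, Benjamini-Hochberg adjustment), on a background of 1.08% of all genes higher and 2.95% lower. The edgeR fit gave 1 gene with an unadjusted p under 0.05, Mov10, an RNA helicase (log2 fold change 0.26 ± 0.11 SE), and DESeq2 also called 0 after adjustment with 1 unadjusted. For 0 of 52 genes were the libraries of the labels separated, against 8.99% of all genes higher and 8.72% lower. Log2 fold changes ran from -0.36 (Helz2, an RNA helicase) to 0.45 (Ifi44). Without both high libraries 1 effector gene, Helz2, was called lower in Nur77-KO, and leaving out Nur77-KO number 2 alone gave the same 1.

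**Figure D1:**
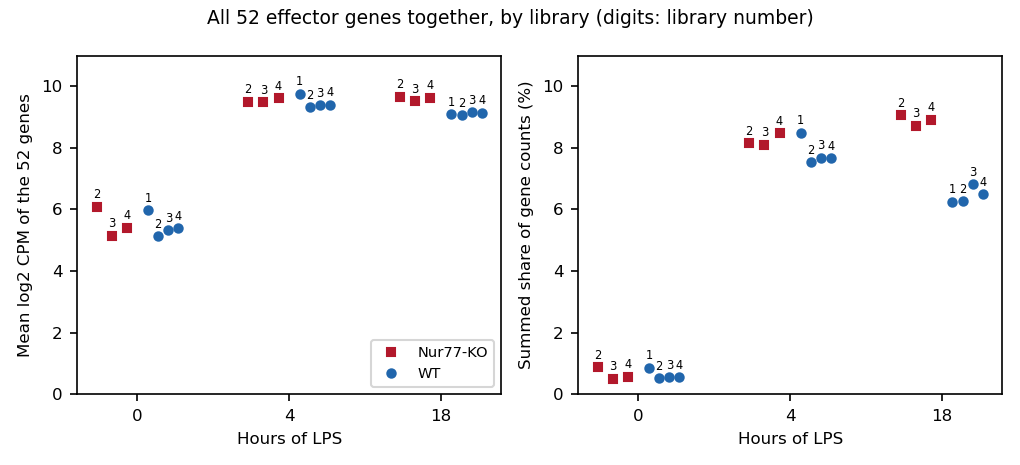
Mean log2 CPM of the 52 effector genes (left) and their summed share of gene counts in percent (right) in each of the 21 libraries, with squares for Nur77-KO and circles for WT at 0, 4 and 18 h of LPS and the library number above each point. At 0 h number 2 of Nur77-KO and number 1 of WT stand above the rest, and at 18 h the shares of 8.72 to 9.05% in Nur77-KO lie above those of 6.25 to 6.81% in WT.

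LPS raised 51 of 52 effector genes within 4 h in both genotypes. The background was 33.4% of all genes higher in Nur77-KO cells and 35.1% in WT cells, and 0 effector genes were lower, where 41.5% and 42.9% of all genes were. The median effector gene had a log2 fold change of 3.57 in Nur77-KO and 3.60 in WT cells, against -0.14 and -0.17 over all genes. Scaled to library totals alone these were 2.61 and 2.62, against -1.10 and -1.15 over all genes. A change of scaling moves all genes by about the same amount, so the distance from the median gene could not differ much. The comparisons of each genotype use their own 0 h libraries and share none.

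The 3 largest rises were the same in both genotypes. Cmpk2, a mitochondrial nucleotide kinase encoded next to Rsad2, reached 11057, 11001 and 11484 CPM in Nur77-KO cells at 4 h, against 81.9, 33.1 and 50.4 CPM at 0 h (log2 fold change 7.67 ± 0.31 SE). In WT cells Cmpk2 reached 12706, 10848, 11644 and 10925 CPM at 4 h, against 75.1, 36.1, 60.9 and 61.2 CPM at 0 h (log2 fold change 7.63 ± 0.27 SE). The rise was carried by every library, with no overlap between times. Rsad2 rose to 32139, 33256 and 33841 CPM in Nur77-KO cells and to 34058, 29688, 33552 and 29668 CPM in WT cells, log2 fold changes of 7.56 ± 0.32 and 7.56 ± 0.28 (SE). It held more counts than any other gene in all 7 libraries at 4 h, 2.23 to 2.49% of gene counts. Oasl1, an oligoadenylate synthetase-like protein that in mouse limits translation of Irf7, rose to 734, 671 and 851 CPM in Nur77-KO cells at 4 h, against 6.51, 2.61 and 3.15 CPM at 0 h, and to 1009, 543, 631 and 721 CPM in WT cells, against 5.43, 2.10, 2.80 and 5.34 CPM. Its log2 fold changes were 7.54 ± 0.38 in Nur77-KO and 7.52 ± 0.33 in WT (SE). Ifit1, Isg15, Mx1 and Usp18 also passed in both genotypes, with log2 fold changes of 6.68, 5.86, 6.27 and 5.43 in Nur77-KO and 6.90, 6.29, 6.20 and 5.86 in WT. Per kilobase of transcript, Rsad2 had the highest level of the 50 effector genes with a length, at 8746 CPM per kb in Nur77-KO and 8393 CPM per kb in WT cells at 4 h.

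Ifi27, which encodes a small hydrophobic mitochondrial protein, was the exception. At 4 h it stood at 51.0, 45.4 and 44.6 CPM in the libraries labelled Nur77-KO, against 19.8, 41.7, 43.6 and 52.8 CPM in WT libraries. At 0 h it stood at 39.7, 43.4 and 36.3 CPM in the libraries labelled Nur77-KO, against 25.3, 33.4, 37.3 and 47.2 CPM in WT libraries. Libraries of both times overlapped, and the change was not called in either genotype (edgeR adjusted p = 0.391 in Nur77-KO and 0.535 in WT). Without WT number 1 at 4 h, the library with the lowest value, it was called higher in WT. At 18 h Ifi27 fell to 8.97, 7.18 and 9.81 CPM in the libraries labelled Nur77-KO, against 8.30, 6.85, 6.68 and 7.99 CPM in WT libraries. The log2 fold changes of 18 h over 0 h were -2.19 ± 0.28 in Nur77-KO and -2.26 ± 0.24 in WT (SE, adjusted p = 9.26e-07 and 7.03e-08 by the same edgeR test). All 18 h libraries lay below all 0 h libraries. Scaled to library totals alone it was also called lower at 4 h in both genotypes.

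At 4 h no effector gene was called between the genotypes in edgeR, on a background of 2.78% of all genes higher and 2.63% lower. Adar, an enzyme that edits adenosine in double-stranded RNA, was the 1 gene with an unadjusted p under 0.05 (log2 fold change 0.27 ± 0.12 SE), and DESeq2 called 0 after adjustment with 1 unadjusted. The libraries of the labels were separated upward for 3 of 52 genes and downward for 1, against 8.47% and 9.2% of all genes. The mean log2 CPM of the 52 genes was 9.50, 9.47 and 9.62 in Nur77-KO libraries, against 9.76, 9.32, 9.38 and 9.41 in WT libraries. WT number 1 was again the highest WT library, for 47 of 52 genes. The difference between the genotypes in the rise at 4 h was called for 0 genes, on a background of 0.583% higher and 0.192% lower, and DESeq2 called 0 with 1 unadjusted.

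**Figure D2:**
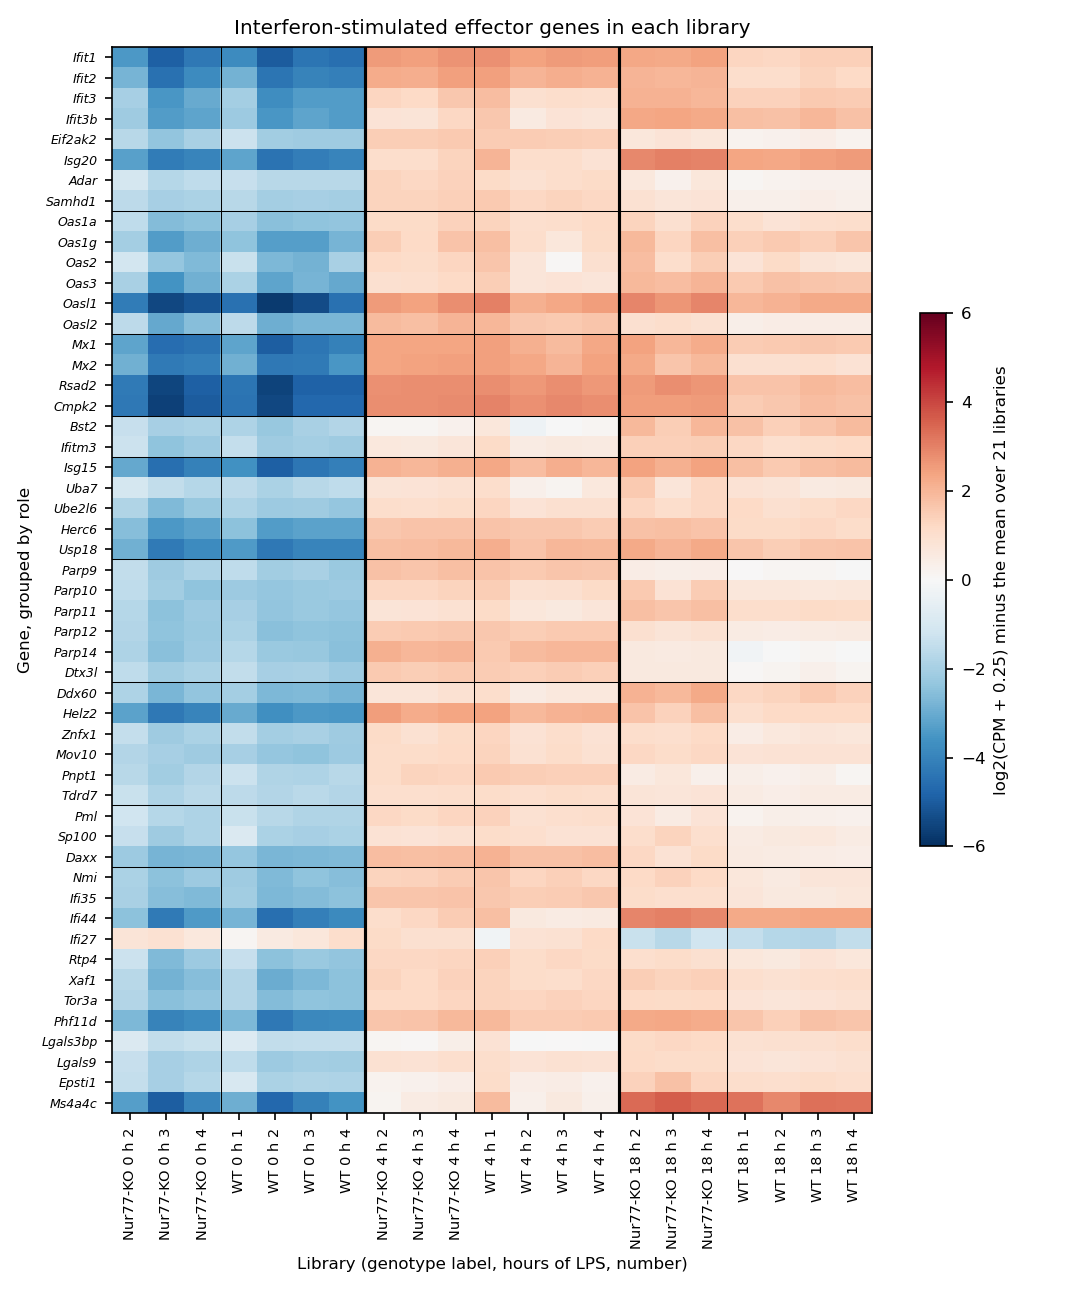
Level of each of the 52 effector genes (rows, grouped by role) in each of the 21 libraries (columns), as log2(CPM + 0.25) minus the gene's mean over all libraries, blue below and red above that mean. Thick lines part 0, 4 and 18 h of LPS, and thin lines part Nur77-KO (left) from WT (right). Ifi27 is the single row that is lowest at 18 h.

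At 18 h the effector genes were higher in cells labelled Nur77-KO. Of 52 genes, 25 were called higher and 0 lower in edgeR, on a background of 16.2% of all genes higher and 15.5% lower. The log2 fold change was above 0 for all 52 genes, from 0.07 (Ube2l6) to 1.03 (Mx2), with a median of 0.50 against -0.01 over all genes. For 44 genes every Nur77-KO library lay above every WT library, against 18.2% of all genes, and for 0 genes below, against 17.6%. With library totals alone 10 genes were called higher (8.96% of all genes) and 0 lower (35.1%), and the log2 fold change was above 0 for 49 genes, turning negative for Oas1g, Bst2 and Ube2l6. The effector median was then 0.29 against -0.23 over all genes. Shares of gene counts are on the scale of library totals. The 52 genes summed to 9.05, 8.72 and 8.92% in Nur77-KO libraries, against 6.25, 6.26, 6.81 and 6.50% in WT libraries. The most counted genes weigh most in this sum: Rsad2 alone held 2.57 to 2.82% in Nur77-KO and 1.62 to 1.85% in WT.

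**Figure D3:**
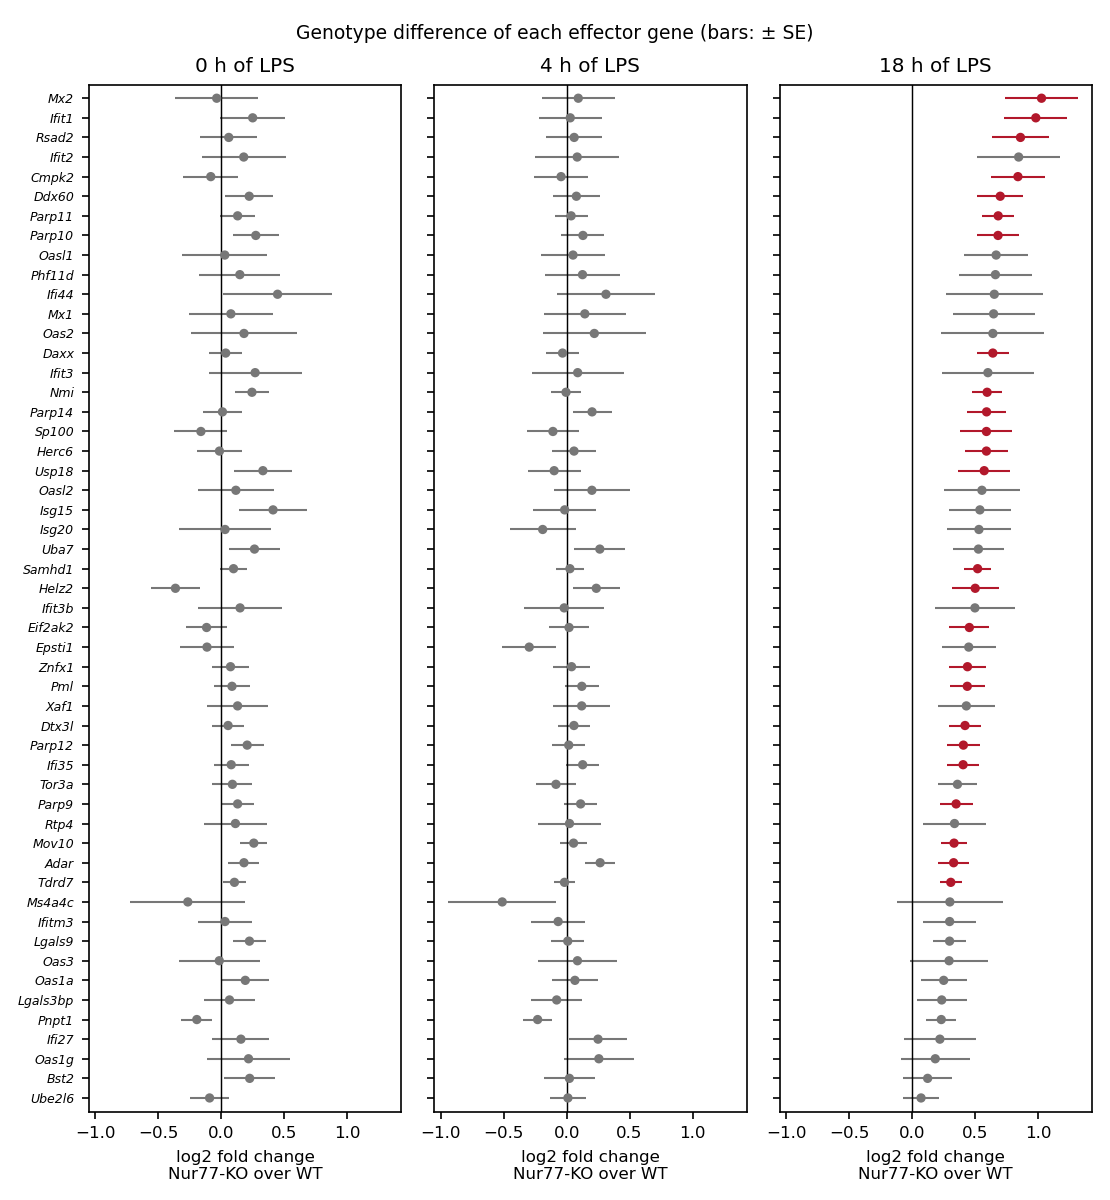
Log2 fold change of Nur77-KO over WT for each of the 52 effector genes at 0, 4 and 18 h of LPS, with bars of 1 SE, ordered by the value at 18 h. Red marks genes called at an adjusted p under 0.05: 0 at 0 h, 0 at 4 h and 25 at 18 h.

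Among the RNA-binding and RNA-degrading proteins 4 of 8 were called higher at 18 h. Ifit1 stood at 4306, 4164 and 4507 CPM in the libraries labelled Nur77-KO, against 2110.4, 2000.2, 2337 and 2306 CPM in WT libraries (log2 fold change 0.98 ± 0.25 SE, edgeR adjusted p = 0.00583). The lowest Nur77-KO library lay well above the highest WT library. Samhd1, which hydrolyses deoxynucleotides and so limits reverse transcription, stood at 3355, 2932 and 3150.0 CPM in the libraries labelled Nur77-KO, against 2142, 2179, 2294 and 2155 CPM in WT libraries (0.52 ± 0.11 SE on the log2 scale, edgeR adjusted p = 0.00102). Eif2ak2, the kinase PKR that halts translation on sensing double-stranded RNA, had a log2 fold change of 0.46 ± 0.16 and Adar of 0.33 ± 0.12 (SE). With library totals alone 2 of the 8 were called, Ifit1 and Samhd1, and Eif2ak2 (0.24) and Adar (0.12) were not. Ifit2, Ifit3, Ifit3b and the exonuclease gene Isg20 were not called, with log2 fold changes of 0.85, 0.60, 0.50 and 0.53 and libraries that did not overlap. Ifit3 and Ifit3b are near-identical copies, so how reads divide between them is uncertain.

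Some members of the oligoadenylate synthetase family make the messenger that activates RNase L. Of this family 0 of 6 genes were called higher at 18 h, with 1 at an unadjusted p under 0.05 in the edgeR fit. Oasl1 came nearest, at 937, 793 and 941 CPM in the libraries labelled Nur77-KO, against 505, 533, 595 and 609 CPM in WT libraries (log2 fold change 0.67 ± 0.25 SE, edgeR adjusted p = 0.0533). Its groups did not overlap, and it passed in the fit of the 18 h libraries alone. Oasl2, Oas2, Oas3, Oas1a and Oas1g had log2 fold changes of 0.56, 0.64, 0.29, 0.25 and 0.18. Oas1a and Oas1g are near-identical, and their split is uncertain.

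Of the Mx genes, viperin and its neighbour, 3 of 4 were called higher at 18 h. Rsad2 stood at 28917, 33032 and 30487 CPM in the libraries labelled Nur77-KO, against 15971, 15686, 18560.4 and 17623 CPM in WT libraries (log2 fold change 0.86 ± 0.22 SE, edgeR adjusted p = 0.00625). It was the second most counted gene in all 7 libraries at 18 h, with 2.57 to 2.82% of gene counts in Nur77-KO and 1.62 to 1.85% in WT. Cmpk2 moved with it, at 9164, 9129 and 9423 CPM in the libraries labelled Nur77-KO, against 4642, 4833, 5697 and 5456 CPM in WT libraries (0.84 ± 0.21 SE, edgeR adjusted p = 0.00547). Mx2, a dynamin-like GTPase, had the largest difference of the list, at 612, 402 and 478 CPM in the libraries labelled Nur77-KO, against 245, 247, 255 and 227 CPM in WT libraries (1.03 ± 0.29 SE, edgeR adjusted p = 0.0119). Its call was lost without Nur77-KO number 2, the highest library (log2 fold change 0.85). Mx1 stood at 3978, 2940.1 and 3471 CPM in the libraries labelled Nur77-KO, against 2149, 2197, 2294 and 2200.5 CPM in WT libraries and was not called (0.65 ± 0.33 SE, edgeR adjusted p = 0.143), though its libraries did not overlap. The transcripts kept for Mx1 and Mx2, and also those for Oas1g and Daxx, have non-coding RefSeq records. C57BL/6 mice are known to carry defective Mx alleles.

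**Figure D4:**
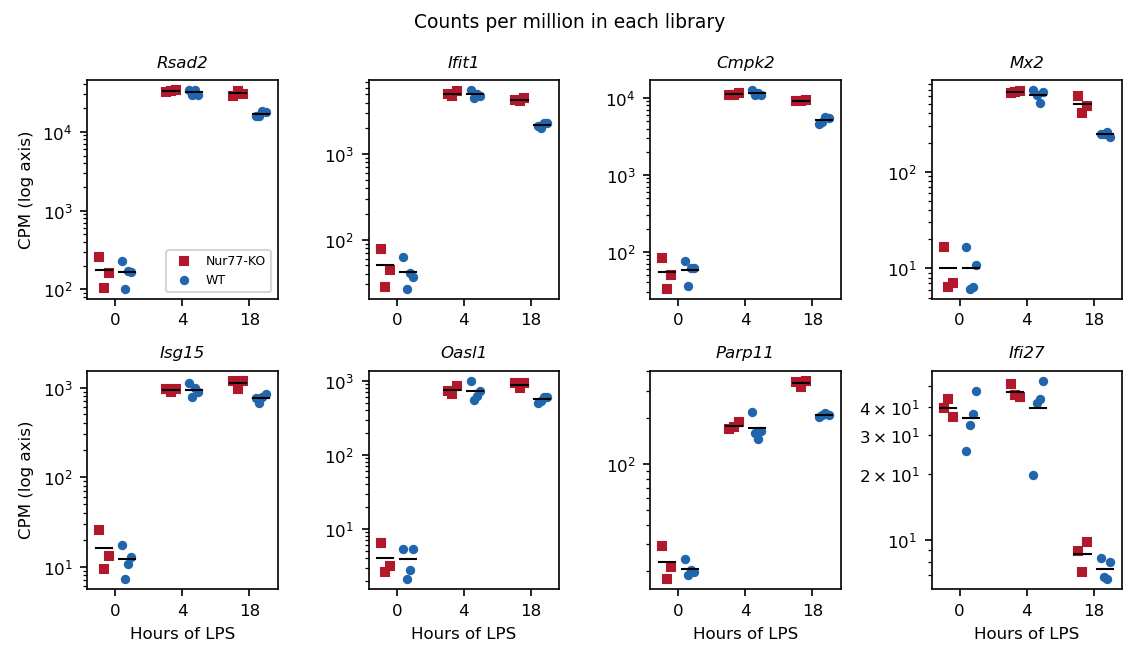
CPM (log axes) of 8 effector genes in each library at 0, 4 and 18 h of LPS, with squares for Nur77-KO, circles for WT and short lines at group means. For Rsad2, Ifit1, Cmpk2, Mx2, Isg15, Oasl1 and Parp11 every Nur77-KO library at 18 h lies above every WT library, while Ifi27 falls at 18 h in both genotypes.

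In the ISG15 system 2 of 5 genes were called higher at 18 h. Isg15 itself stood at 1182, 959.9 and 1197 CPM in the libraries labelled Nur77-KO, against 771, 670.1, 785 and 839 CPM in WT libraries (log2 fold change 0.54 ± 0.25 SE, edgeR adjusted p = 0.11), with no overlap but no call. Herc6, the main ISG15 ligase of the mouse, had a log2 fold change of 0.59 ± 0.17 and was called, a call lost with library totals alone (0.37). Usp18, which removes ISG15 from proteins and restrains the interferon receptor, stood at 917, 779.8 and 930.1 CPM in the libraries labelled Nur77-KO, against 593, 532, 613 and 617 CPM in WT libraries (0.57 ± 0.21 SE, edgeR adjusted p = 0.0421). This call was lost without any 1 of the 7 libraries at 18 h (log2 fold changes 0.53 to 0.65), with upper-quartile factors (0.53), with library totals alone (0.36), with no filter on low counts (0.56) and with the stromal covariate (0.63). Uba7 and Ube2l6, the activating and conjugating enzymes, had log2 fold changes of 0.53 and 0.07 and were not called. The membrane proteins Bst2, which tethers budding virions, and Ifitm3, which blocks viral fusion, were not called either, with 0.12 and 0.30.

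All 6 genes of ADP-ribosylation were called higher at 18 h. Parp11, a mono-ADP-ribosyltransferase, stood at 342, 315 and 349 CPM in the libraries labelled Nur77-KO, against 203, 206, 216 and 209 CPM in WT libraries (log2 fold change 0.68 ± 0.13 SE, edgeR adjusted p = 0.000399). Parp10 and Parp14, transferases of the same class, had log2 fold changes of 0.68 ± 0.17 and 0.59 ± 0.15 (SE). Parp9 with its ubiquitin ligase partner Dtx3l and Parp12, which binds RNA, had 0.35, 0.42 and 0.41. Scaled to library totals alone 2 of the 6 were called, Parp10 and Parp11, and the calls of Parp14 (0.38), Dtx3l (0.20), Parp12 (0.19) and Parp9 (0.13) were lost. No Nur77-KO library overlapped a WT library for any of the 6. Parp10 was less even, at 288, 176 and 275 CPM in Nur77-KO libraries, against 156, 153, 152 and 153 CPM in WT libraries.

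Among helicases and RNA processing factors 5 of 6 were called higher at 18 h. Ddx60, a helicase reported to aid RNA sensing, stood at 767, 701 and 869.7 CPM in the libraries labelled Nur77-KO, against 431, 460.1, 550.1 and 477 CPM in WT libraries (log2 fold change 0.70 ± 0.18 SE, edgeR adjusted p = 0.00656), a call lost with the stromal covariate (0.61). Helz2, Znfx1, Mov10 and Tdrd7 had log2 fold changes of 0.50, 0.44, 0.33 and 0.31, and the mitochondrial exoribonuclease gene Pnpt1, not called, had 0.23. On the scale of library totals alone only Ddx60 of the 6 was called, with 0.29, 0.22, 0.12 and 0.09 for Helz2, Znfx1, Mov10 and Tdrd7. All 3 genes of PML nuclear bodies were called. Daxx, a histone chaperone of these bodies, stood at 607, 471 and 568 CPM in the libraries labelled Nur77-KO, against 366, 355, 346 and 340.3 CPM in WT libraries (0.64 ± 0.13 SE, edgeR adjusted p = 0.000651). Sp100 and Pml had 0.59 and 0.44, and both calls were lost with library totals alone (0.37 and 0.22). Of the 12 remaining genes Nmi, an interferon-induced regulator of cytokine signalling, was called with 0.60 ± 0.12 SE (edgeR adjusted p = 0.000762), as was its binding partner Ifi35 with 0.41, whose call was lost with library totals alone (0.19). The other 10, Ifi44, Ifi27, Rtp4, Xaf1, Tor3a, Phf11d, Lgals3bp, Lgals9, Epsti1 and Ms4a4c, were not called, with log2 fold changes from 0.22 (Ifi27) to 0.66 (Phf11d).

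The count of 25 at 18 h moved with the fit. With the 18 h libraries alone 46 genes were called higher, the same 25 among them, on a background of 17.2%, and the 6 not called were Oas1a, Oas1g, Bst2, Ifi27, Ube2l6 and Pnpt1. Leaving out both high 0 h libraries called 37 (background 16.7%), as did leaving out all 0 h libraries (background 16.1%). The count was 14 with the mean of a stromal marker list as covariate, where the background was 9.95%. It was 13 without Nur77-KO number 2, 13 without number 4 and 15 without WT number 1. In 20 fits, 8 genes were called higher every time: Ifit1, Rsad2, Cmpk2, Parp10, Parp11, Samhd1, Daxx and Nmi. The fits reuse the same libraries, and the share of all genes called in every fit was not computed. Stromal markers summed to 55.6, 262.5 and 1050 CPM in Nur77-KO libraries at 18 h (lowest, median and highest), against 32.2 to 80.8 CPM in WT libraries, with 5 of 9 tested called higher and none of the list at 0 in every library. Neutrophil markers were called higher for 5 of 8 (327.1 to 461.4 CPM, against 189.9 to 277 CPM in WT), dendritic cell markers for 2 of 3 (16.5 to 20.7 CPM, against 9.17 to 10.2 CPM in WT) and monocyte markers for 2 of 6 (354.9 to 428.9 CPM, against 266.6 to 293.7 CPM in WT). Of the neutrophil list, Mpo and Prtn3 were at 0 in every 18 h library and Elane and Retnlg at 0 in WT, and Cd209a of the dendritic cell list was at 0 in all. Plasmacytoid dendritic cell markers were called higher for 1 of 4 (173.2 to 202.9 CPM, against 127.1 to 140.4 CPM in WT). At 0 h, where no effector gene was called, neutrophil markers were higher for 7 of 8 (78.3 to 133.6 CPM, against 28.1 to 48.9 CPM in WT) and cell cycle markers lower for 6 of 6 (57.6 to 64.9 CPM, against 137.1 to 203.1 CPM in WT). At 18 h macrophage markers were called higher for 3 and lower for 2 of 8. The part of these cells in the difference was not tested beyond the stromal covariate, and more cells of a type and more RNA per cell cannot be told apart in bulk samples.

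Between 4 and 18 h the effector genes followed several courses. In Nur77-KO cells 11 were higher at 18 h than at 4 h and 15 lower in edgeR (backgrounds 33.2% and 32.1%), with a median log2 fold change of 0.03. In WT cells 10 were higher and 27 lower (37.1% and 34.4%), with a median of -0.44 against 0.06 over all genes. With library totals alone the Nur77-KO counts were 19 and 12 (41.9% and 24.4% of all genes), with a median of 0.27 against 0.26 over all genes. The WT counts were then 16 and 18 (56.0% and 20.6% of all genes), with a median of 0.03 against 0.52 over all genes. Of the 27 genes lower in WT, 18 were lower on that scale too, 8 were not called and Mov10 was called higher. Against their own 0 h libraries 51 genes were still higher at 18 h in both genotypes, with 34.4% of all genes higher in Nur77-KO and 34.7% in WT, and Ifi27 was the 1 gene lower, where 38.5% and 36.2% of all genes were.

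Of the 52 genes 11 in Nur77-KO and 10 in WT were late risers, a smaller share than the 33.2% and 37.1% of all genes. Late risers of WT all rose in Nur77-KO too. Ms4a4c, a tetraspan membrane protein of myeloid cells, stood at 2473, 2923 and 2564 CPM in Nur77-KO cells at 18 h, against 265, 332 and 355 CPM at 4 h (log2 fold change 3.06 ± 0.49 SE). In WT cells it stood at 2222, 1745, 2362 and 2289.7 CPM at 18 h, against 871, 289, 357 and 292 CPM at 4 h (2.25 ± 0.41 SE). Its times did not overlap, and WT number 1 was far above the other WT libraries at 4 h. Isg20, Ifi44 and Bst2 also rose in both, by 1.80, 1.67 and 1.66 in Nur77-KO and 1.08, 1.33 and 1.56 in WT on the log2 scale. In all, 10 genes were higher in both genotypes: these 4 with Ifit3b, Oas3, Parp11, Lgals3bp, Ddx60 and Epsti1. The share of all genes with the same pair of calls was not computed, here or for the groups below. Ifitm3 was called higher in Nur77-KO (0.81) and not in WT (0.44).

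Another group of 15 genes was lower at 18 h than at 4 h in both genotypes, with the lowest values for Ifi27, Parp14 and Parp9. In Nur77-KO 15 of 52 was no larger a share than the 32.1% of all genes lower. The 27 of 52 lower in WT were a larger share than the 34.4% of all genes. Parp14 stood at 2793, 2709 and 2869 CPM in Nur77-KO cells at 18 h, against 8309, 7557 and 7721 CPM at 4 h (log2 fold change -1.49 ± 0.17 SE), and at 1645, 1866, 2016 and 1876 CPM in WT cells, against 5533, 6991, 7451 and 7373 CPM (-1.89 ± 0.15 SE). Parp9 had log2 fold changes of -1.35 in Nur77-KO and -1.59 in WT. Of the 15, 12 were called lower in both with library totals alone.

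A further group of 12 genes was called lower in WT and not called in Nur77-KO: Ifit1, Ifit2, Mx2, Rsad2, Cmpk2, Herc6, Rtp4, Parp10, Tor3a, Nmi, Znfx1 and Mov10. Ifit1 had a log2 fold change of -0.24 ± 0.27 in Nur77-KO and -1.19 ± 0.24 in WT, Cmpk2 -0.28 ± 0.23 and -1.16 ± 0.20, Mx2 -0.42 ± 0.31 and -1.36 ± 0.27, and Rsad2 -0.10 ± 0.24 and -0.90 ± 0.21 (SE, with Nur77-KO first in each pair). With library totals alone Ifit1, Mx2, Cmpk2 and Nmi kept this pattern, the Rsad2 change in Nur77-KO turned to 0.13 and its WT call was lost. Isg15, Oasl1, Usp18 and Mx1 were not called in either genotype, with 0.25, 0.24, 0.33 and -0.15 in Nur77-KO and -0.31, -0.37, -0.34 and -0.65 in WT. A call in 1 genotype alone does not show a difference between them, which needs its own test.

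**Figure D5:**
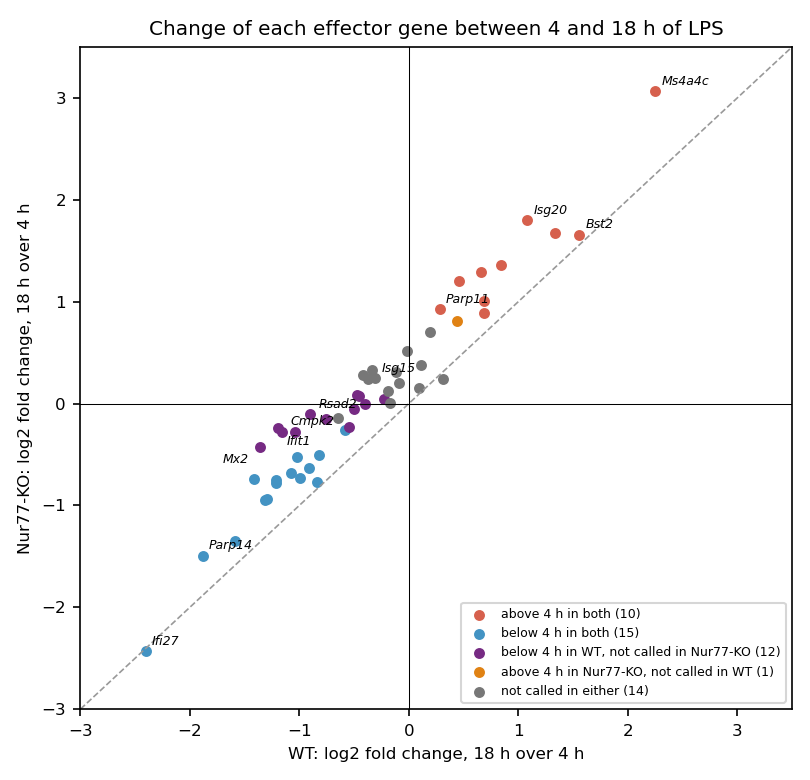
Log2 fold change of 18 h over 4 h of LPS for each of the 52 effector genes in Nur77-KO (vertical) against WT (horizontal), coloured by the calls in each genotype, with the number of genes in the legend. The dashed line marks equal change, and 50 genes lie above it.

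That test called 4 of 52 genes higher and 0 lower, on a background of 6.11% and 4.54% of all genes. The share called higher was near that of all genes. The difference in the 18 h over 4 h change between Nur77-KO and WT was 0.67 ± 0.18 for Daxx, 0.65 ± 0.18 for Parp11, 0.60 ± 0.17 for Nmi and 0.50 ± 0.16 for Samhd1 (log2, SE, edgeR adjusted p = 0.0195, 0.0261, 0.0268 and 0.0436). Of the group of 12 only Nmi passed, while Ifit1 (0.95 ± 0.36, edgeR adjusted p = 0.0944) and Cmpk2 (0.89 ± 0.30, edgeR adjusted p = 0.069) did not. The difference was above 0 for 50 of 52 genes, with Oas1g and Ifi27 the exceptions, against 50.3% of all genes. Fitting only the 4 and 18 h libraries called 21 (background 6.04%), and library totals alone called 0 (background 3.24%) and left 45 of 52 above 0. The count fell to 1 without Nur77-KO number 2 or 3 at 4 h and to 2 without Nur77-KO number 4 or WT number 2 at 18 h.

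Measured from 0 h the difference at 18 h was called higher for 4 of 52 genes and lower for 0. The background was 8.54% and 8.9%, so the share called higher was near that of all genes. The genes called were Cmpk2 (0.92 ± 0.31), Helz2 (0.87 ± 0.27), Daxx (0.61 ± 0.18) and Parp11 (0.55 ± 0.19, log2 with SE), with edgeR adjusted p = 0.0441, 0.033, 0.0268 and 0.0467. This count rested on single 0 h libraries. It was 17 without Nur77-KO number 2 at 0 h, 15 without both high 0 h libraries, and 0 without Nur77-KO number 3, number 4 or WT number 1 at 0 h or Nur77-KO number 2 or number 4 at 18 h. Library totals alone also called 0. It was 2 without WT number 3 at 0 h, Nur77-KO number 3 or WT number 2 or number 4 at 18 h, and 1 without WT number 1 at 18 h.

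The genes that carry the signal to the effectors were followed with a separate list of 25. At 0 h 1 was lower, at 4 h 1 was higher and 1 lower, and at 18 h 11 were higher in Nur77-KO and 2 lower in edgeR, with the backgrounds given above. Ifnb1, which encodes interferon beta, stood at 13.4, 14.9 and 19.9 CPM in the libraries labelled Nur77-KO, against 23.8, 5.44, 7.95 and 10.0 CPM in WT libraries at 4 h. At 18 h it stood at 10.8, 8.14 and 7.33 CPM in the libraries labelled Nur77-KO, against 4.64, 3.68, 4.99 and 6.17 CPM in WT libraries (log2 fold change 0.85 ± 0.36 SE, edgeR adjusted p = 0.0765), with no overlap but no call. Both receptor chains and both kinases were called higher at 18 h, with log2 fold changes of 0.34 for Ifnar1, 0.51 for Ifnar2, 0.34 for Jak1 and 0.36 for Tyk2. Values and calls of this list are given with TMM factors only. With library totals alone the all-gene median at 18 h was -0.23, against -0.01 with TMM, so the smaller values depend on the scaling. The transcription factors Stat2, Irf9 and Irf7 were not called, with 0.49, 0.25 and 0.41.

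Socs1, the feedback inhibitor of the receptor kinases, had the largest difference of that list, at 81.3, 38.1 and 86.8 CPM in the libraries labelled Nur77-KO, against 27.7, 24.3, 31.7 and 27.3 CPM in WT libraries (log2 fold change 1.32 ± 0.23 SE, edgeR adjusted p = 0.000344). Its lowest Nur77-KO library lay above the highest WT library. Also called higher were the sensors Tlr3 (0.91) and Ifih1 (0.81), the related inhibitor Socs3 (0.79), the transcription factor Irf1 (0.63), the kinase Tbk1 (0.53) and the adaptor Ticam1, known as TRIF (0.23). Irf1 was the gene called higher at 4 h (0.49). Ddx58, the gene of the RNA sensor RIG-I, was lower at every time, with -1.73, -1.58 and -0.75 at 0, 4 and 18 h. It stood at 420.3, 453 and 435 CPM in the libraries labelled Nur77-KO, against 1584, 1208, 1220.1 and 1203 CPM in WT libraries at 4 h, with no overlap. The adaptor gene Ticam2 was lower at 18 h (-0.49).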

How the data were processed

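Messenger RNA was sequenced in 21 libraries, and the deposited table gives each RefSeq transcript an estimated count, in steps of 0.5. HISAT2 2.1.0, CASAVA 1.8.2 and the mm10 build are named in the submitters' processing notes. How reads were counted, by strand or where shared, is left unsaid in the sources used here, and near-identical copies and overlapping genes are therefore uncertain.

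Groups came from sample titles. Transcript IDs were matched to RefSeq symbols (42203 of 42361 IDs, and 65 through GENCODE). The 93 without a name held 0.232 to 2.229% of deposited counts and were left out of library sizes. The transcript with the highest mean stood for each gene, and counts on its other transcripts were also left out of library sizes. The design had assumed whole counts, so the expected counts deposited by the authors were rounded (0.5 upward). A single model of 6 group means was fitted to the 21 libraries with edgeR 4.0.16 (R 4.3.3), using TMM factors, its default filter on low counts and quasi-likelihood tests, and a gene was called where p adjusted by Benjamini-Hochberg over 12529 genes was under 0.05. SE is the log2 fold change divided by the root of F. CPM uses TMM library sizes, and log2 CPM a prior count of 2. The tests were run on simulated counts whose spread followed the trend with level over all genes. That setting does not cover the effector genes, with a median biological coefficient of variation of 0.185 against 0.115 over all genes tested.

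The members and lists were chosen with earlier results of these data known. Genes given in full were 6 set by name (Isg15, Ifit1, Rsad2, Oasl1, Usp18 and Mx1) and those with the largest called changes of each comparison. Ifi35, Bst2 and other members are named by role. Same-numbered libraries were checked for pairing: deviations from group means correlated at 0.228 to 0.316 in all 4 WT pairs of 0 and 4 h, which fitted the rule for pairs (all over 0.1), and not throughout in any other set of groups. Alternatives were DESeq2 1.42.0, median-of-ratios and upper-quartile factors, library totals alone, other filters, summed transcripts, the compared groups alone, the number as a block, a stromal covariate (the mean log2 CPM of stromal markers) and leaving out each library. Library totals alone and the fits without 0 h libraries were chosen after seeing the data.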

Additional observations from a re-analysis of the deposited data

Results flagged for a closer look

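In 66 groups of 4 WT libraries (21 genes and the mean of the 52 genes at 3 times) 1 library lay far from the other 3 in 6, where chance gives about 1 in 20 groups. All 6 were number 1. The groups share the same libraries and genes that moved together, so 6 of 66 cannot be read against that rate. At 0 h Ddx60 stood at 44.9 CPM and Samhd1 at 558.9 CPM in it. At 4 h Ifi44 stood at 422.6 CPM, Isg20 at 204.5 CPM and Ms4a4c at 871.03 CPM, above the other WT libraries. At 18 h Helz2 stood at 732.2 CPM in it, below the others.

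By the interaction term in edgeR (quasi-likelihood test, Benjamini-Hochberg adjustment), the genotypes differed in the change between 0 and 18 h for Cmpk2 (log2 difference 0.92), Parp11 (0.55), Daxx (0.61) and Helz2 (0.87), and in the change between 4 and 18 h for Parp11 (0.65), Samhd1 (0.50), Daxx (0.67) and Nmi (0.60). Each list is 4 of 52 genes, a share near the background of 8.54% of all genes from 0 h and 6.11% from 4 h. The counts therefore do not set the effector genes apart from other genes. The difference is Nur77-KO minus WT, and Samhd1, Daxx and Nmi had a negative change from 4 to 18 h in both genotypes, nearer to 0 in Nur77-KO. All 8 calls were lost with library totals alone, and the 4 calls from 0 h also without any 1 of 5 libraries (Nur77-KO number 3 or 4 or WT number 1 at 0 h, Nur77-KO number 2 or 4 at 18 h).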

How the results depend on the processing

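Counts of effector genes called that moved by over 1.5 times were as follows. With the compared groups alone they were 46 higher in Nur77-KO at 18 h (25 in the fit of all libraries), 18 higher at 18 h than at 4 h in Nur77-KO (11), 2 higher in the genotype difference of the 18 h over 0 h change (4) and 21 in that of the 18 h over 4 h change (4). With library totals alone they were 10, 19, 0 and 0 for the same 4 counts, 16 higher at 18 h than at 4 h in WT (10), and 1 lower at 4 h than at 0 h in each genotype (0). DESeq2 gave 10 and 7 for the genotype differences from 0 h and 4 h, and no filter on low counts gave 1 for the first. Without both high 0 h libraries they were 15 and 21, and 1 lower between genotypes at 0 h (0). Without all 0 h libraries the second was 21. The stromal covariate gave 14 higher at 18 h, with 9.95% of all genes higher against 16.2% without it.

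Leaving out 1 library at a time gave 13 to 22 higher at 18 h between genotypes, 0 to 1 lower at 0 h, 10 to 12 higher and 14 to 15 lower at 18 h over 4 h in Nur77-KO, 6 to 11 higher (6 without WT number 2 at 4 h) and 23 to 27 lower in WT, 51 to 52 higher at 4 h in WT, 0 to 17 in the genotype difference from 0 h and 1 to 4 in that from 4 h. Where an arm kept 2 libraries its spread was taken from all groups.

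Values of single genes turned sign in 6 cases. The change of Rsad2 from 4 to 18 h in Nur77-KO was 0.00802 with upper-quartile factors and 0.13 with library totals alone, and that of Mx1 was 0.095 with library totals alone. In WT those of Isg15, Oasl1 and Usp18 were 0.16, 0.097 and 0.13 with library totals alone. None of these was called in the fit of all libraries. Of the 1390 values of named genes under alternatives 1272 kept direction and side of the threshold, 82 lost a call and 30 gained one. The 1390 include the large changes from 0 h within a genotype, where none changed. All that changed lay in the genotype comparison at 18 h, the 18 h over 4 h changes and the genotype differences in change. The kept count therefore says little about those smaller differences. The replicate number was a block across genotypes in the genotype comparisons and within each genotype in all others. With it the WT count at 4 h was 51, as without it, and 33 were higher at 18 h between genotypes. It moved no count of effector genes by over 1.5 times. Same-numbered Nur77-KO and WT libraries at 18 h correlated at -0.053 to 0.164, so the count of 33 matches libraries not shown to be paired. The causes were not tested. The fit of all libraries shares 1 estimate of spread over times. The median SD of log2 CPM of effector genes was 0.447 in Nur77-KO and 0.371 in WT at 0 h, and 0.0968 and 0.0929 at 18 h.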
